A study of Homo sapiens with 96 samples.

Results

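On 1 plate of single human embryonic stem cells, 9 of 96 wells gave RNA libraries that held almost no reads of mitochondrially encoded genes, and these 9 are described here against 84 other libraries. Membership was set by the counts themselves. A library entered the low-mitochondrial set with more than 10000 reads on genes and under 1% of them on the mitochondrially encoded (MT-) genes. A library entered the other set with at least 100000 gene reads, at least 2000 genes with a read and an MT- share of at least 1%. The 3 remaining libraries, of wells A2, A7 and A9, held 768 to 1133 gene reads and met neither rule. The 9 wells were A4, B8, C2, C6, E6, F9, G3, H1 and H4. Because the counts chose the members, every difference between the sets is given as a description, without a test, and the MT- and gene read values are not findings.

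The study tried a method that reads DNA methylation and the transcriptome of the same cell, and only its RNA tables were used here. All wells carried HUES64, an established embryonic stem cell line, with the genotype inducible DNMT1 KO, at day 0. A doxycycline treatment was recorded as present in 1 label field and as absent in another, for all wells alike. Both sets therefore share genotype, time and treatment labels, no label names a second culture, and the spread between libraries is a spread between wells of 1 plate.

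Polyadenylated RNA of a lysed cell is caught on beads, copied into cDNA and amplified in SMART-seq2, and the wells of a plate are commonly amplified alike whatever they hold. In a living stem cell the polyadenylated pool is dominated by transcripts of ribosomal proteins, translation factors, glycolytic enzymes and the mitochondrial genome, beside the mRNAs of the pluripotency network. The share of mitochondrial reads is widely used to judge single-cell libraries. Whether a well of this set held a cell is not in the labels, and an empty well, a lost cell and lost RNA cannot be told apart here.

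The 9 wells lay in 7 of the 8 plate rows, with 2 each in rows C and H and none in row D, and in 7 of the 12 columns. They were sequenced as deeply as the others. The low-mitochondrial libraries had 3535588 to 12138033 reads of any kind, median 8141281, and the others had 902742 to 12933539, median 6889154. Of these reads only 0.901% to 1.41% fell on genes in the 7 low-mitochondrial wells of rows A, B, C, E and H, which with row D are called the 6 main rows, against 2.38% to 24.6%, median 11.4%, in the 62 other wells of the 6 main rows. In rows F and G, which were sequenced less deeply, wells F9 and G3 had 3.38% and 3.27% on genes, against 5.71% to 39.2% in the 22 other wells. All 9 low-mitochondrial libraries thus lay below every other library of their rows in this share. Gene reads numbered 87891 to 155710 per library, so that 1 read stood for 6.42 to 11.4 counts per 1000000 gene reads (CPM), and the 9 libraries together held 1009549 gene reads. The files hold reads without molecular identifiers, and every interval or floor given covers counting error only.

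**Figure D1:**
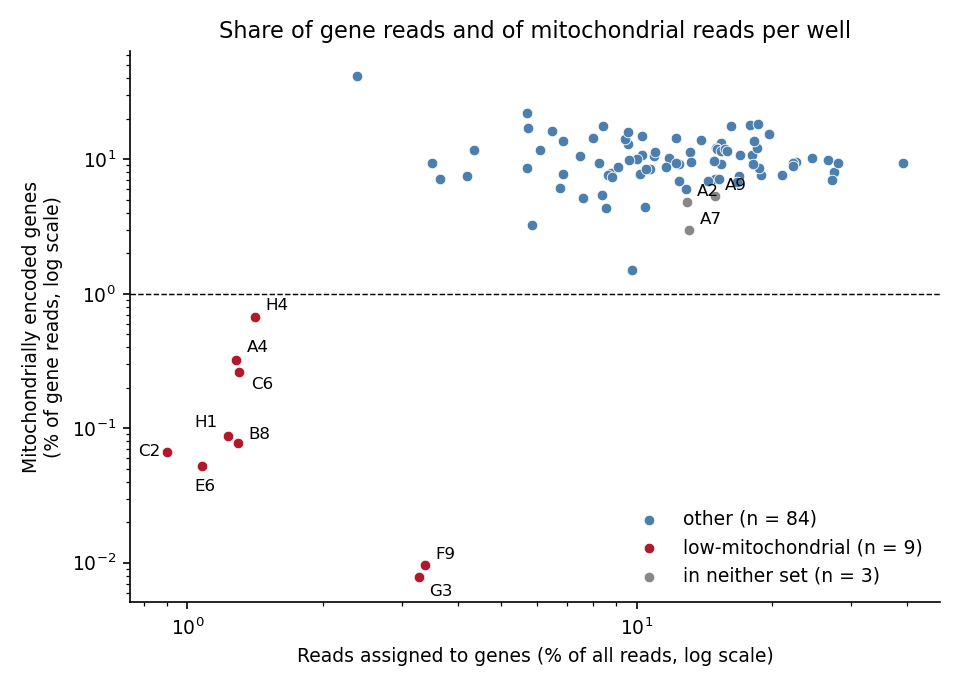
Share of all reads that fell on genes (x, percent, log scale) and share of gene reads on mitochondrially encoded genes (y, percent, log scale) for 96 wells. The 9 low-mitochondrial wells (red) lie at 0.00778% to 0.677% on the y axis, below the dashed line of the 1% rule, and the wells in neither set (grey) lie at 2.96% to 5.30%.

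The MT- values that chose the set ran from 0.00778% of gene reads in G3 and 0.00959% in F9, which are 9 and 12 reads, through 0.0523% in E6, 0.0669% in C2, 0.0777% in B8, 0.0881% in H1, 0.262% in C6 and 0.321% in A4 to 0.677% in H4. The nearest libraries on the other side of the rule were G10 at 1.51%, H12 at 3.26% and E11 at 4.32%. No library lay between 0.677% and 1.51%, and the median of the other set was 9.51%. MT-CO1, a subunit of cytochrome c oxidase, had 2844 CPM in H4, 983 in A4, 544 in C6, 162 to 211 in B8, C2, E6 and H1, 25.9 in G3 and none in F9. Its lowest level in the 84 other libraries was 5144 CPM. H4 moved the mean of MT-CO1 most, which was 574 CPM with it and 290 CPM without it.

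Among the genes called lower, several that were abundant in the other libraries were at a few percent of their level there. LDHB, a lactate dehydrogenase subunit, had a mean of 56.4 CPM in the 9 libraries against 3312 CPM in the 84 others. EEF1A1, the translation elongation factor that carries tRNA to the ribosome, had 81.2 against 3051 CPM, and RPLP0, a protein of the ribosomal stalk, had 29.5 against 2663 CPM. These genes were picked by a rule of size, as those with the highest mean in the other set among genes past 4-fold lower. That they were lower thus follows from the rule. On the scale log2((mean CPM + 1)/(mean CPM + 1)), low-mitochondrial over other, the 3 ratios were -5.85, -5.21 and -6.45.

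In single wells, EEF1A1 had 64.2 CPM in A4, 59.1 in B8, 40.5 in C2, 95.9 in C6, 102 in E6, 47.9 in F9, 43.2 in G3, 47.4 in H1 and 230 in H4. Its lowest value in the other set was 252 CPM, so the sets did not overlap for this gene, although every one of the 9 libraries held reads of it. The next genes of the rule included NPM1, a nucleolar chaperone, at 72.7 against 2874 CPM, and TMSB4X, an actin-binding peptide, at 46.6 against 2349 CPM. RAN, the GTPase of nuclear transport, had 34.5 against 2323 CPM, and H2AFZ, a histone variant, had 14.3 against 2238 CPM. H4 again held much of these sums: without it the means were 20.8 CPM for LDHB, 24.3 CPM for NPM1, 22.5 CPM for TMSB4X and 6.90 CPM for H2AFZ. For H3F3B, which encodes a replacement histone, A4 was the high library with 1252 CPM, and the mean of 216 CPM became 86.05 CPM without A4.

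Over all 10342 genes past the filter, which asked for a mean of the 2 set means of at least 10 CPM, 2309 (22.3%) were past 4-fold higher in the low-mitochondrial set and 3890 (37.6%) were past 4-fold lower, each with a read in at least 50% of the libraries of the higher set. The median log2 ratio of all genes past the filter was -1.03. The higher genes numbered 825 with a pseudocount of 10 CPM and 763 with a filter of 50 CPM, and the lower genes 2153 with medians over libraries in place of means and 1640 with that filter. These shares rest on CPM, where the gene reads of a library sum to a fixed total. Counted per 1000000 reads of any kind (RPM), which also holds the unmapped and multiply mapped reads and those outside genes, 0 of 8253 genes were past 4-fold higher and 6220 (75.4%) were past 4-fold lower. Among the 3890 genes lower by CPM, 144 had no read in any of the 9 libraries, and 17 had their highest low-mitochondrial value below their lowest value in the other set. The 2309 higher genes included 25 whose lowest low-mitochondrial value lay above the highest value of the other set.

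**Figure D2:**
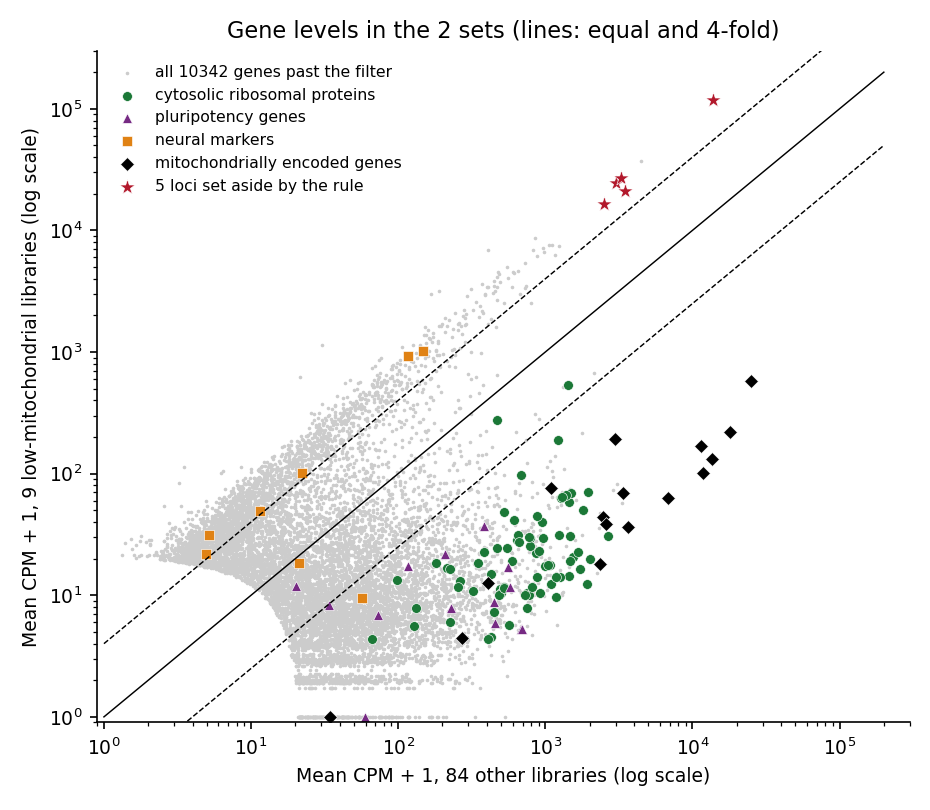
Mean CPM + 1 of each gene past the filter in the 84 other libraries (x, log scale) and in the 9 low-mitochondrial libraries (y, log scale), with the equal line (solid) and 4-fold lines (dashed). Ribosomal protein, pluripotency and mitochondrial genes lie mostly below the lower dashed line, and a band of genes runs along and above the upper one, where PAX6 and MAP2 stand at 1010 and 928 CPM.

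The lists of gene groups described next were chosen with results of these data already known. Their counts stand beside 22.3% higher and 37.6% lower over all genes past the filter. Of 74 cytosolic ribosomal protein genes past the filter, 72 were past 4-fold lower and 0 higher, with a median log2 ratio of -5.11. Their summed level was 799 to 7363 CPM in the 9 libraries, highest in H4 at 7363 and in A4 at 3340, and 8081 to 114249 CPM in the others. The sets did not overlap. RPL37A was one of the 2 members that were not called, with a mean of 533 against 1436 CPM and with 996 CPM in B8 and 1012 in H4 but 63.9 in F9 and 17.3 in G3. Of 25 housekeeping genes, 24 were lower and 0 higher, among them ACTB, cytoplasmic actin, at 74.1 against 1470 CPM.

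Of 14 pluripotency genes past the filter, 13 were past 4-fold lower, 0 were higher, and the median log2 ratio was -4.94. POU5F1, the core factor OCT4, had 8 reads in all 9 libraries together, a mean of 7.79 CPM against 448 CPM, and no read in 3 of the 9. NANOG had 0 reads in the 9 libraries, which allows a pooled level of up to 2.97 CPM by a floor of 3 reads, against a mean of 58.3 CPM in the others. GDF3, a ligand of the TGF-beta family, had 4 reads, a mean of 4.29 against 690 CPM. TDGF1, through which Nodal signals reach the cell, had 4 reads and 4.31 against 684 CPM, and without H1 the mean was 2.48 CPM. The summed list was 94.8 to 218 CPM in the 9 libraries and 102 to 8097 CPM, median 4618, in the others, with 1 of the 84 others at or under 218 CPM. Of 8 markers of the primed state, 7 were lower and 0 higher, among them CD24, a surface protein, at 22.1 against 456 CPM, or 7.64 CPM without H4.

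Genes of the DNA methylation machinery were mixed by CPM. HELLS, a chromatin remodeller needed for methylation, had 10.4 against 258 CPM, and TET1, which oxidises methylcytosine, had 3.74 against 172 CPM, or 0.999 CPM without A4. DNMT3B, the de novo methyltransferase of stem cells, had 20.8 against 207 CPM, or 10.7 CPM without H4. DNMT3A, the other de novo enzyme, was not past 4-fold and stood higher, at 104 CPM in F9 to 351 in H1 with a mean of 254, against a mean of 109 CPM in the others. DNMT1, the gene targeted by the knockout, was low in both sets, with 25 reads in the 9 libraries, a mean of 25.4 CPM against 29.4 CPM and a log2 ratio of -0.21. By RPM, all 8 listed members past the filter were more than 2-fold lower, DNMT3A and DNMT1 included.

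Among cell-cycle genes, 18 of 20 G2/M genes were past 4-fold lower and 2 were higher. Of 19 G1/S genes, 15 were lower and 0 higher, beside 37.6% lower and 22.3% higher over all genes. TOP2A, the mitotic topoisomerase, had 18.4 against 692 CPM, and PCNA, the replication clamp, had 7.37 against 335 CPM. The exceptions were the cyclins CCNB2, at 3021 against 670 CPM, and CCNA2, at 1050 against 238 CPM. CCNB2 had 3140 CPM in A4, 2904 in B8, 567.5 in C2, 2516 in C6, 1718 in E6, 6065 in F9, 5411 in G3, 2360 in H1 and 2503 in H4. F9 and G3 were highest and C2 lowest, and without F9 the log2 ratio of CCNB2 was 1.98 and no longer past 4-fold. CCNA2 was at 40.5 CPM in C2, 79.6 in E6, 264 in F9 and 268 in G3, and at 1554 to 1887 CPM in the other 5 wells. By RPM the log2 ratios of CCNB2 and CCNA2 were -0.31 and -0.93.

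Most members of a list of nuclear long noncoding RNAs were lower too. Of 14 listed genes past the filter, 11 were lower and 1 higher, beside 37.6% lower over all genes. The higher member was MEG3, at 127 against 19.5 CPM. NEAT1 and KCNQ1OT1 were not called, with log2 ratios of -1.53 and 0.53. Where in the cell the listed RNAs lay was not tested, so the count describes the list and not nuclear RNA as a whole. MALAT1, an abundant RNA of nuclear speckles, had 13.8 against 1034 CPM, with 13 reads in the 9 libraries and none in C2, F9 and H4. GAS5, the host of several snoRNAs, had 8.96 against 842 CPM, or 4.75 CPM without C6, and ESRG, a transcript of pluripotent cells, had 9.53 against 511 CPM. The summed list did not overlap between the sets, at 245 to 487 CPM against 760 to 8393 CPM.

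The genes that were higher by CPM formed another group. Apart from the 5 loci that the selection sets aside (FLG-AS1, KCNJ2, RP11-217O12.1, DGCR14 and PDE4A) and from symbols with more than 1 annotated position, the highest mean was that of SLC39A9, a zinc transporter, at 8712 against 847 CPM. P3H1, a collagen prolyl hydroxylase, had 7613 against 1114 CPM, and SLC4A9, an anion exchanger, had 7548 against 1065 CPM. VWDE, a von Willebrand factor domain protein, had 7501 against 1237 CPM. DOK7, an activator of the muscle kinase MuSK, had 6927 against 817 CPM, and C2CD3, a centriole protein, had 6860 against 405 CPM. DPF3, a reader of histone marks in the BAF complex, had 6107 against 883 CPM. KCNT1, a sodium-activated potassium channel, had 5352 against 728 CPM, and PFKFB4, a regulator of glycolysis, had 4554 against 604 CPM.

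Several of these genes are best known from tissues other than stem cells, such as kidney, muscle and brain. In the GENCODE 29 annotation of GRCh38, SLC39A9 spans chr14:69398015-69462388 on the plus strand and C2CD3 spans chr11:74012714-74171210 on the minus strand. P3H1 had 10943 CPM in A4, 10620 in B8, 1966 in C2, 11032 in C6, 4733 in E6, 5570 in F9, 5869 in G3, 8870 in H1 and 8909 in H4. The other set reached 5241 CPM with a median of 815. C2 and E6 were below the remaining 7 wells for P3H1, and all wells but C2 and E6 lay above the highest other library.

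SLC39A9 and C2CD3 owed their means to 2 wells. SLC39A9 had 43285 CPM in C2 and 11799 in E6, 6145 in F9, 6336 in G3, and 1981 to 2503 in the other 5. Without C2 its mean was 4391 CPM and its log2 ratio 2.37 in place of 3.36. C2CD3 had 36170 CPM in C2, 15440 in E6 and 1173 to 1726 in the other 7, and without C2 its mean was 3196 CPM and its log2 ratio 2.98 in place of 4.08. Both genes stayed past 4-fold higher without C2.

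By class, the low-mitochondrial libraries held a larger share of reads on pseudogenes and on symbols that the annotation does not class. Pseudogenes took 3.70% of gene reads in A4, 3.76% in B8, 3.04% in C2, 3.62% in C6, 3.37% in E6, 3.97% in F9, 4.004% in G3, 3.84% in H1 and 3.66% in H4. The other libraries had 0.499% to 2.92%, median 0.917%, so the sets did not overlap. Symbols with no class took 14.5% to 16.9% against 1.88% to 10.4%, also without overlap. Most of these reads lay on clone-named loci, which had a median of 10.4% against 2.28%. Genes with a single exon took 4.14% to 5.19% against 0.852% to 3.74%, without overlap.

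Antisense genes took 2.50% to 4.33% of gene reads, median 3.14%, against 0.237% to 3.26%, median 0.486%, and the sets overlapped. The class holds FLG-AS1, 1 of the 5 loci set aside, with a mean of 16436 CPM: over a total without MT- genes and those loci the medians were 1.73% and 0.371%, a difference of 1.36 points in place of 2.66. Small RNA genes took 0.168% to 0.258% in 7 wells and 0.707% and 0.724% in F9 and G3, against 0.0153% to 0.478%. Genes that span at least 100000 bases took 16.1% to 22.9% against 8.87% to 18.9%, with F9 at 22.9% and G3 at 22.7% the highest. The other long noncoding genes took 1.11% to 2.42% against 0.650% to 2.22%, with medians of 1.25% and 1.35%, and this difference turned with the processing. Protein-coding genes took 71.7% to 77.2% against 44.7% to 89.5%, with medians of 76.01% and 83.4%. Over the total without MT- genes and the 5 loci these medians were 73.2% and 93.6%, a difference of -20.4 points in place of -7.34. Counts did not use strand, and 50.6% to 52.1% of strand-assigned gene reads of the 9 libraries fell on the forward strand, so reads of an antisense gene and of its partner cannot be told apart.

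**Figure D3:**
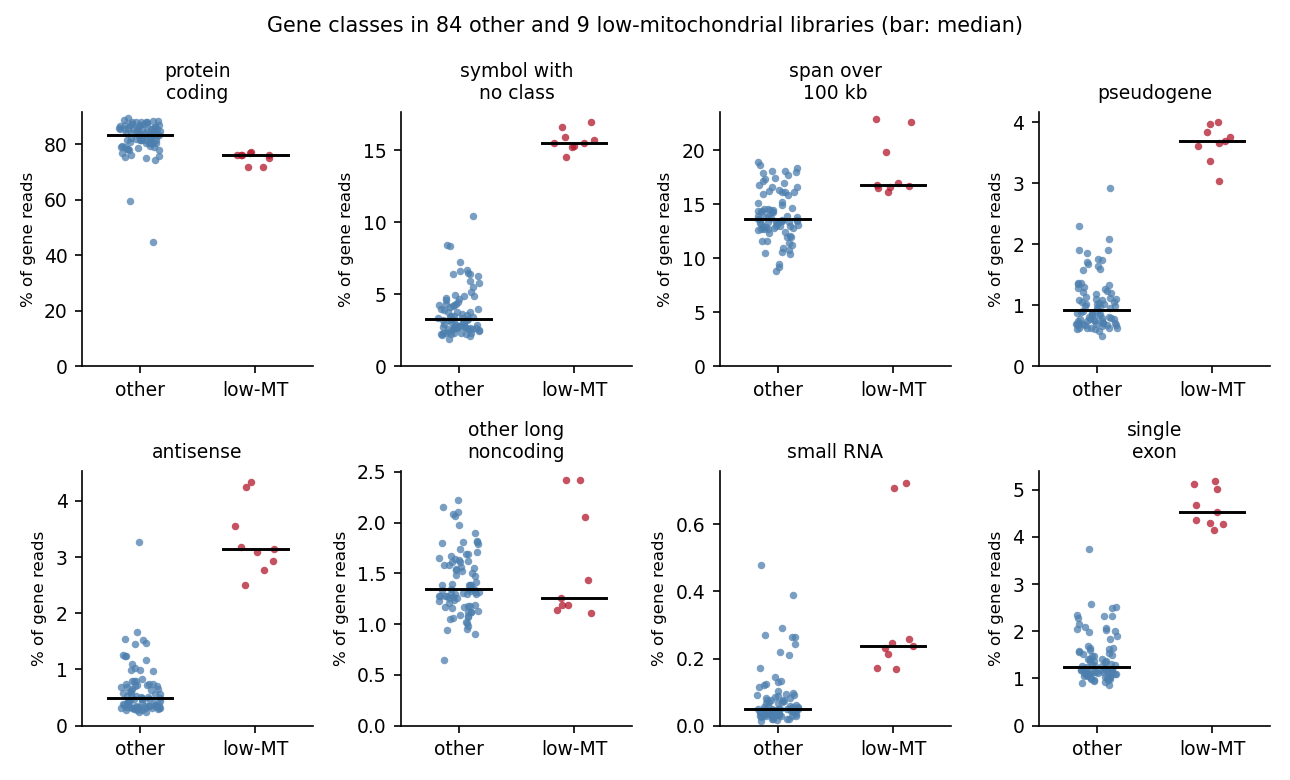
Share of gene reads (percent, y axes from 0) taken by 8 gene classes in each of the 84 other (blue) and 9 low-mitochondrial (red) libraries, with bars at the medians. Pseudogenes, symbols with no class and single-exon genes do not overlap between the sets, while coding and other long noncoding genes do.

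Counted by gene, 144 of 223 pseudogenes past the filter (64.6%) were past 4-fold higher and 32 (14.3%) lower. Of 77 antisense genes 45 (58.4%) were higher, of 567 symbols with no class 369 (65.1%), of 294 single-exon genes 171 (58.2%) and of 23 small RNA genes 20 (86.96%). The shares over all genes were 22.3% higher and 37.6% lower. Protein-coding genes had 1661 of 9278 (17.9%) higher and 3712 (40.01%) lower. Long-span genes had 438 of 2334 (18.8%) higher and 652 (27.9%) lower. Their higher share was near those of coding genes and of all genes, and their lower share was under both. A gene at low level in the other set could pass the filter only through the low-mitochondrial set, and such genes are frequent in the noncoding classes: of 8460 pseudogene symbols, 223 passed.

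TMSB4XP2, a copy of the thymosin gene TMSB4X, led the pseudogenes at 4986 against 550 CPM. It is a stretch of 210 bases at chr2:3617548-3617757 (GRCh38). Its parent TMSB4X moved the other way, at 46.6 against 2349 CPM. SEC63P2, a processed copy of the translocon gene SEC63 at chr4:35487812-35489750, had 4366 against 485 CPM, and SNX19P3 had 2205 against 280 CPM. Reads of such copies and of their parents can be exchanged in mapping, and their levels are uncertain to that extent. Among antisense genes, IDI2-AS1 had 3181 against 188 CPM, with 14533 CPM in C2 and 8602 in E6, or a mean of 1762 CPM without C2. BDNF-AS, antisense to the neurotrophin gene BDNF, had 1126 CPM in E6 to 3700 in F9 with a mean of 2394, against a mean of 362 CPM.

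Markers of other cell types appeared among the higher genes. Of 8 neural markers past the filter, 6 were past 4-fold higher and 1 lower, with a median log2 ratio of 2.17. Over all genes, 22.3% were higher and 37.6% lower. PAX6, a neural and eye transcription factor, had 841 CPM in A4, 971 in B8, 314 in C2, 842 in C6, 296 in E6, 1814 in F9, 1867 in G3, 1213 in H1 and 930 in H4, against a median of 90.9 and a highest value of 1259 CPM in the others. MAP2, a dendrite microtubule protein, had 592 CPM in E6 to 1362 in H4, mean 928, against 116 CPM. SOX1, a neural progenitor factor, had 30 reads in all, 30.3 against 4.14 CPM. NES, the intermediate filament of neural progenitors, was the lower member with 8.54 against 55.8 CPM. The summed list was 1092 to 3103 CPM against 39.5 to 2113 CPM, and NEUROG2 and STMN2, 2 neuronal genes that did not pass the filter, had 1 and 2 reads in the 9 libraries.

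All 3 of the 10 trophoblast and amnion markers past the filter were higher, GATA3 at 147 against 20.3 CPM, CDX2 at 29.2 against 4.53 CPM and TFAP2A at 22.9 against 4.68 CPM. GATA3 had 406 CPM in G3, 264 in F9 and none in C2 and E6, and TFAP2A was no longer past 4-fold without G3, with a log2 ratio of 1.58. CDX2 and TFAP2A, like SOX1, GATA6 and KRT5, were under 10 CPM in the other set and passed the filter only through the set where they were high, so these counts support nothing beside the 22.3% over all genes. Of 5 endoderm markers, GATA6 was higher at 53.7 against 6.74 CPM and EOMES was lower. Of 4 keratinocyte markers, which were listed because of handling, FLG was higher at 115 against 11.4 CPM and KRT5 at 33.9 against 2.24 CPM, the latter 19.1 CPM without C2, and 0 were lower. At 11.4 CPM in the other set, FLG also needed the low-mitochondrial level to reach the filter. FLG overlaps the antisense locus FLG-AS1, and the counts do not separate the strands. Of 6 fibroblast markers 3 were lower and 1 higher, and CD74 alone of 6 blood markers passed the filter, with 102 CPM in E6.

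Olfactory receptor genes, known from the nasal epithelium, were present at a few reads each. Of 406 olfactory receptor genes, 251 had no read in the 9 libraries and 8 passed the filter, 7 of them past 4-fold higher and 0 lower. Of these 7, 5 were under 10 CPM in the other set and passed only through the low-mitochondrial set. OR2T11 and OR14J1, at 12.9 and 10.06 CPM in the other set, also needed the low-mitochondrial level to reach the filter. The count therefore supports nothing beside the 22.3% higher over all genes. The summed receptors were 486 to 1158 CPM against 18.5 to 831 CPM. OR2T11 had 69.1 CPM in G3 to 239 in H4, mean 106, against 12.9 CPM. Of 190 nuclear copies of mitochondrial genes, 15 passed the filter, 10 of them higher and 1 lower. MTRNR2L4, at 152 against 17.4 CPM, needed the low-mitochondrial level to reach the filter. MTND1P14, a copy on chromosome 17, had 286 against 45.4 CPM, whereas MTND2P28 had 3 reads and 3.26 against 245 CPM, the same direction as the MT- genes. Of 7 small structural RNA genes 5 were higher and 0 lower, among them SNORD114-17, a snoRNA, at 183 against 28.6 CPM. RNU6-56P, RNU4-59P and RNU6-1122P had 5.99, 6.89 and 4.75 CPM in the other set and passed the filter only through the low-mitochondrial set. Of 5 replication-dependent histone genes 2 were called higher and 1 lower, while the median log2 ratio of the list was -3.25. The lower call was HIST1H1C, at 1.74 against 35.3 CPM. HIST1H2BK and HIST1H2BH, with log2 ratios of -3.25 and -4.70, were read in too few of the other libraries to be called. HIST1H2BN, an H2B gene, was higher at 91.4 against 9.48 CPM. HIST1H2BN also passed only through the low-mitochondrial set. Of 19 large neuronal and fragile-site genes, 4 were higher and 1 lower. Among the higher ones, NRG1, OPCML and CSMD3 had 8.68, 6.54 and 4.74 CPM in the other set and passed in the same way. The counts of higher nuclear copies and of higher small RNA, histone and large genes thus follow in part from the filter. Over all genes past the filter, 22.3% were higher and 37.6% lower. CDH13, an adhesion protein, was higher at 112 against 16.2 CPM, and it too needed the low-mitochondrial level to reach the filter. CNTNAP2, a neuronal adhesion protein, was not called at 190 against 736 CPM. Without A4, CNTNAP2 was past 4-fold lower with a log2 ratio of -2.18.

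Set against all reads of the library in place of gene reads, the higher genes were at nearly the same level in both sets. The log2 ratio of the 2309 higher genes had a median of 2.60 by CPM, with 2.15 and 3.09 at the 10th and 90th percentiles. By RPM its median was 0.16, with -0.38 and 0.51 at the same percentiles. Within 2-fold on that scale were 2282 of the 2309 higher genes (98.8%), 0 of the 3890 lower genes and 2916 of all 10342 genes (28.2%). Since the CPM contrast had chosen the higher genes and the scales share the same reads, these counts are a description.

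Together the 2309 higher genes received 10173 RPM in A4, 10379 in B8, 7331 in C2, 10305 in C6, 8090 in E6, 9552 in H1 and 10412 in H4. The 62 other libraries of the 6 main rows had 5806 to 10450, median 8755. F9 and G3 had 20939 and 20089, and the 22 other libraries of rows F and G had 11142 to 23205, median 15756. Every low-mitochondrial library lay inside the range of the others of its rows. As a share of gene reads, the same genes took 61.4% to 81.4% in the 9 libraries and 2.85% to 40.7% in the others. The ribosomal protein genes, by contrast, received 12.7 to 104 RPM in the 9 libraries and 193 to 29451 in the others.

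**Figure D4:**
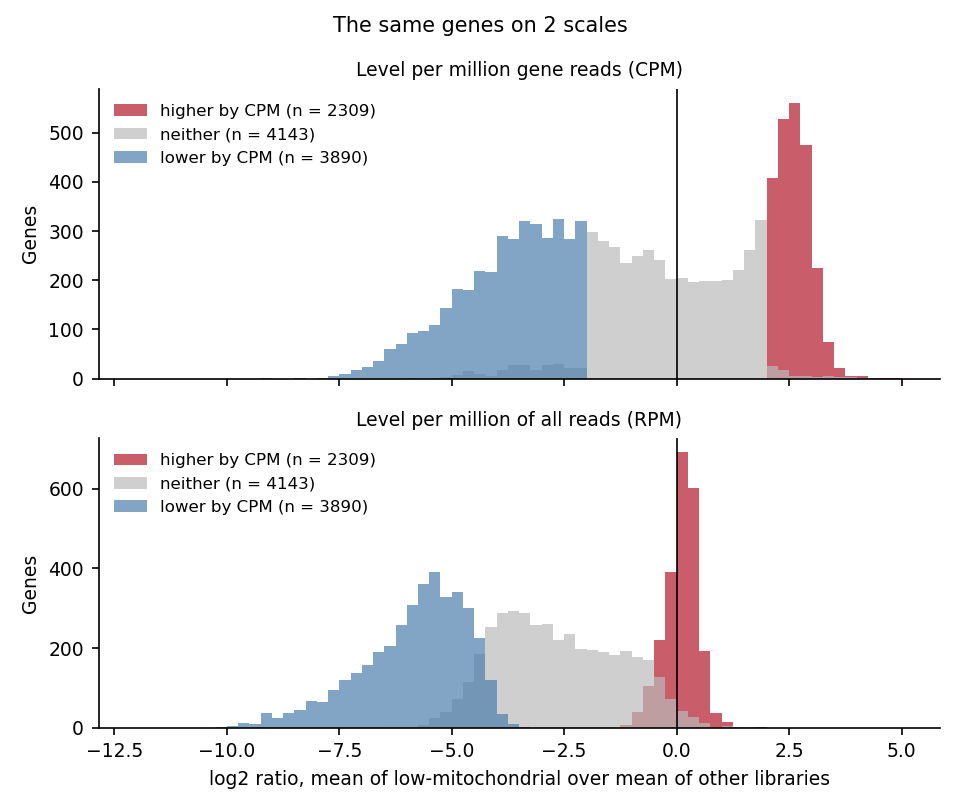
Number of genes (y) by log2 ratio of low-mitochondrial over other libraries (x), by CPM (top) and by RPM of all reads (bottom), for genes higher, lower or neither by CPM; genes past 4-fold by mean but with a read in too few libraries count as neither. The 2309 higher genes have a median of 2.60 in the top panel and 0.16 in the bottom panel.

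The order of the higher genes was also shared. Over the 2309 genes, the pooled levels of low-mitochondrial and other libraries had a Spearman rho of 0.93 in the 6 main rows and of 0.90 in rows F and G, across genes, which are not independent. KCNJ2, an inward rectifier potassium channel and the locus with the highest mean of the 9, had 1961 RPM in A4, 2094 in B8, 1295 in C2, 2013 in C6, 1895 in E6, 1731 in H1 and 1673 in H4. The 62 other libraries of these rows had 828.8 to 2433, median 1438. In F9 and G3, where RP11-217O12.1, FLG-AS1 and PDE4A stood higher, it had 393 and 314, and the 22 other libraries of rows F and G had 155 to 677, median 277. The low-mitochondrial wells of each row set lay inside the range of their neighbours, and the row sets did not overlap.

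PAX6 lay in the range of the other wells of its rows or, in H1, just above it, with 2.83 RPM in C2 to 14.9 in H1 against 0.683 to 14.6 in the other wells of the 6 main rows, and with 61.3 in F9 and 61.1 in G3 against 17.6 to 71.8 in rows F and G. EEF1A1 lay below all other wells of its rows in all 9, with 0.365 in C2 to 3.25 in H4 against 11.1 to 886, and with 1.62 in F9 and 1.41 in G3 against 111 to 2868. Neural markers as a list had 11.8 to 36.1 RPM in the 7 wells against 6.23 to 71.05, and 96.9 and 102 in F9 and G3 against 34.2 to 121. Of the 8 neural markers past the filter, 6 were within 2-fold on this scale and 2 more than 2-fold lower.

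Among the 9 profiles, F9 and G3 lay apart from the wells of the 6 main rows. C2 lay nearly as far from A4, B8, C6, H1 and H4, with 0.44 to 0.48, so plate row was not the only split. These values are Spearman's rho over the 10342 genes, which between low-mitochondrial libraries was 0.35 to 0.73, median 0.46. Its median was 0.37 between libraries of the other set and 0.07 between a low-mitochondrial and another library. The highest value was that of F9 with G3, 0.73. A4, B8, C6, H1 and H4 had 0.62 to 0.69 with each other. C2 with E6 had 0.52, and each of them had 0.44 to 0.53 with these 5, so that over all genes C2 and E6 were no closer to each other than E6 was to A4, at 0.53. Pairs across the row sets had 0.35 to 0.45. Rank correlations move with depth, and the values describe the wells of 1 plate.

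F9 and G3 differed from the other 7 at many genes. Of 3183 genes averaging 30 CPM or more over the 2 row sets, 723 were 4-fold higher in F9 and G3 and 489 were 4-fold lower. Of the 723, 653 were also higher in the other libraries of rows F and G than in the others of the 6 main rows, 510 of them by 2-fold. Of the 489, 431 were also lower. The shares over all 3183 genes were not counted, so these counts stand without a background and nothing is concluded from them. RP11-404O13.5, a clone-named locus, had 397 and 364 RPM in F9 and G3, 0 in 5 of the 7 other wells and at most 0.123 in C2 and E6. In the other set it had 175 to 1093 in rows F and G and 0 to 1.07 in the 6 main rows. This gene was chosen after its values were seen, and it separated the row sets in both sets of libraries.

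C2 and E6 shared a pattern at single genes within the 6 main rows, noticed after their values were seen. C2CD3 had 326 and 167 RPM there, and 15.2 to 20.5 in A4, B8, C6, H1 and H4. PDE4A, a cAMP phosphodiesterase, was low in the same wells, with 41.8 in C2 and 93.6 in E6 against 413 to 482 in the 5. KCNJ15, another inward rectifier, had 16215 CPM in C2 and 6098 in E6 against 549 to 838 CPM in the 5, and without C2 its mean was 1371 CPM in place of 3020. Among the 62 other libraries of these rows, 14 had more than 50 RPM of C2CD3, 13 of them in rows A, C and E. Of these 14, 12 had PDE4A under 200 RPM, and of the 48 others, 4 did. These thresholds were chosen after the values were seen.

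**Figure D5:**
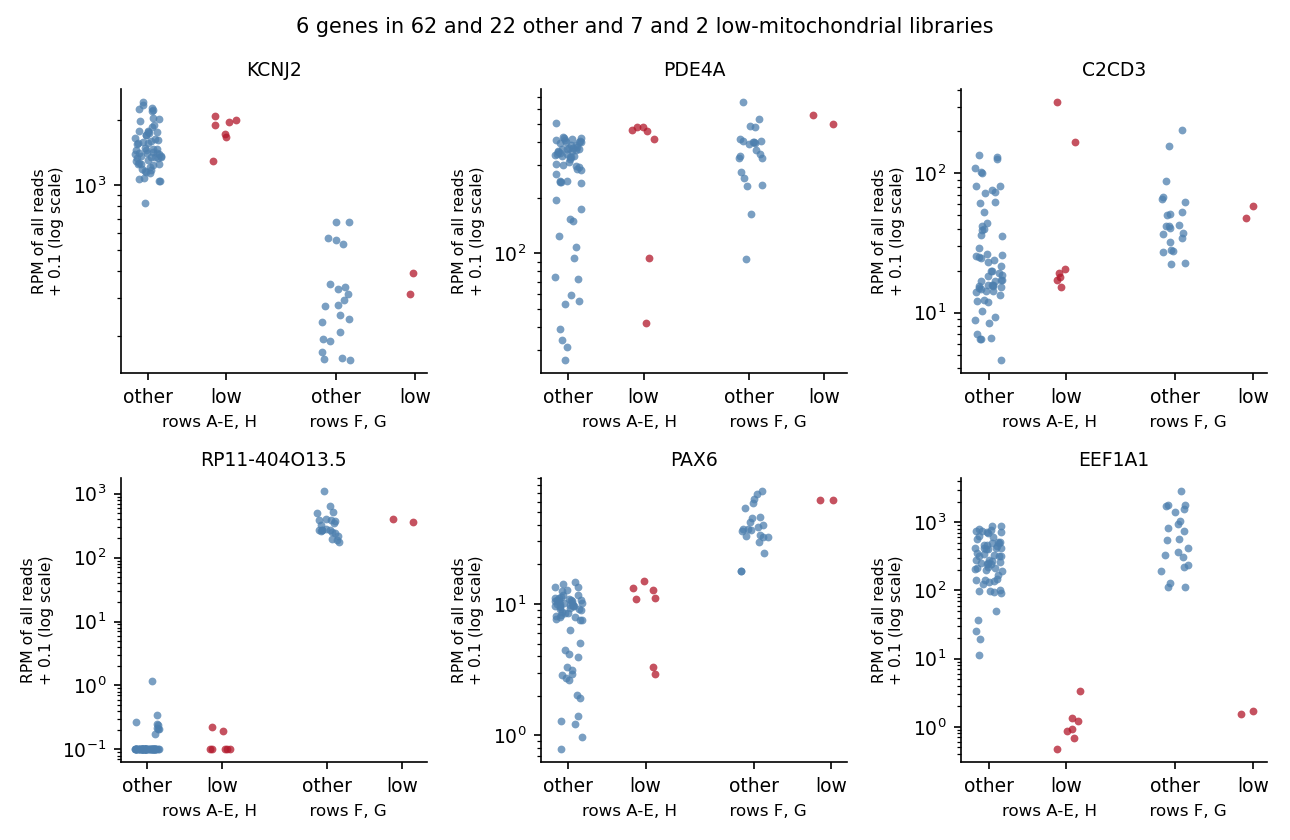
RPM of all reads + 0.1 (y, log scale) of 6 genes in each other (blue) and low-mitochondrial (red) library, separately for the 6 main rows and rows F and G. For KCNJ2, PDE4A, RP11-404O13.5 and PAX6 the red points lie in or beside the blue range of their rows, C2CD3 is above it in C2 and E6, and EEF1A1 lies below it.

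The number of genes with a read depended on depth. The 9 libraries had 9308 genes in C2 to 16206 in F9, median 11254, and the others 7986 to 19336, median 14046. At 10000 gene reads drawn from each library the medians were 2724 and 3232. At 100000 gene reads, which 6 of the 9 held, the median was 10890.5 against 7637.5. In the 6 main rows the medians were 2708 and 3176.5 at the shallow depth and 10287 and 7299.5 at the deeper one. In rows F and G they were 3514.5 and 3410, and 14696 and 8999. At the shallow depth the order thus differed between the row sets, and at the deeper one the low-mitochondrial median was higher in both. In the 9 libraries together, 29544 genes had a read, but only 2175 had one in all 9, of which 1221 were among the higher genes.

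The higher genes also differed in composition. The GC content of the longest annotated transcript had a median of 54.2% over the 1940 higher genes with a value, 43.1% over the lower genes and 46.5% over all genes past the filter. Values existed for 84.02% of the higher genes. A run of at least 15 A or T bases stood in that transcript for 15.1% of the higher and 23.96% of the lower genes. Exonic length had medians of 5406, 4866.5 and 5660 bases. Across 19506 coding genes, Spearman's rho of pooled level with exonic length was 0.49 in the 7 wells, 0.54 in F9 and G3 and 0.48 in the other set, while that with GC content was 0.12, -0.04 and -0.27. GC content and base runs were examined after the calls were known, and their part in the levels was not tested.

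Of the genes past the filter, 4143 were called neither way. Among those within 2-fold by CPM with the highest levels, CLDN11, a tight junction protein, had a mean of 650 against 469 CPM, TAOK1, a kinase, 604 against 313 CPM, and DST, a cytoskeletal linker, 460 against 352 CPM. CPSF6, an mRNA cleavage factor, had 530 against 375 CPM, but 2819 CPM in A4 alone and a mean of 244 CPM without it. On the scale of all reads all 4 were lower, with log2 ratios of -2.12 to -2.78. Because they were picked as within 2-fold by CPM, their place between the higher and the lower genes on that scale was fixed in advance.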

How the data were processed

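RNA of 96 wells was measured, 1 table per well. Per the labels' protocols, polyadenylated RNA was pulled down and amplified by SMART-seq2 with Nextera XT libraries. Each table the authors deposited holds raw counts of reads per gene symbol without regard to strand and per strand, with summary lines for unmapped, multiply mapped, unassigned and ambiguous reads. FastQC, STAR 2.7.3a, GRCh38.p2 and hg38 are named per the submitters' processing notes; of the annotation release, trimming and duplicate handling the sources used here say nothing. The unstranded column was used. Wells were taken from the titles, also in columns 1 and 12, where the table's name gives the other column (H1 among them).

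All wells carry the same labels. The 2 sets were cut from the counts, and the members, gene lists and thresholds were chosen with earlier results of these data known. No test, p-value or standard error was therefore made between sets. Levels are CPM of all gene reads, averaged with equal weight per library, with a pseudocount of 1 CPM. A gene passed the filter with a mean of the 2 set means of at least 10 CPM and was called past 4-fold with a read in at least 50% of the libraries of the higher set. The second scale, RPM of all reads recorded (per 1000000) with a pseudocount of 0.1, was added after the data were seen. Of the 58521 symbols, 36914 were placed with GENCODE 29 (GRCh38), which is not known to be the authors' annotation; 21520 had no entry and 87 had more than 1 position, are counted as having no class and are not named (6 of them among the higher genes). Sets of reads were thinned with seed 1. Genes were named by level: the 15 highest each way, the 5 highest within 2-fold, up to 4 per list and 3 per class. POU5F1, NANOG, SOX1, DNMT1, NEUROG2, STMN2, KCNJ15 and RP11-404O13.5 were added after their values were seen. Scripts ran in Python 3.11.15 with pandas 2.3.3, numpy 2.4.6, scipy 1.17.1 and matplotlib 3.10.9, and were tested on simulated data. Alternatives covered the set rule, total, weights, strand column, plate rows, pseudocount, filter, fold, depth and leaving out each low-mitochondrial library.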

Additional observations from a re-analysis of the deposited data

Results flagged for a closer look

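Among the 9 low-mitochondrial libraries, 31 measures were searched for a library far from the other 8, and 4 stood out. The threshold used marks about 1 in 20 measures by chance. This rate does not hold for the mitochondrial share, 1 of the 31, because it cut the set, and its flag is not a finding. H4 was the highest in 3 of the 4 measures that stood out, and these 3 were not independent. Across the 9 libraries the housekeeping and ribosomal sums followed the mitochondrial share, with Spearman's rho of 0.93 and 0.92 as a description. Its mitochondrial share was 0.677% of gene reads, against 0.00778% to 0.321% in the other 8. Its housekeeping genes summed to 4519 CPM, against 233 to 2299 CPM. Its cytosolic ribosomal protein genes summed to 7363 CPM, against 799 to 3340 CPM. H4 also had the highest EEF1A1 level of the 9, 230 CPM, and its shares of pseudogene reads (3.66%) and of the 5 loci set aside (20.99%) lay inside the range of the others. E6 was apart in the blood markers, with 114 CPM against 0 to 31.96 CPM, most of it CD74 at 102 CPM.

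The 3 wells in neither set carried mitochondrial reads above the level of the low-mitochondrial libraries, at 4.82% of gene reads in A2, 2.96% in A7 and 5.30% in A9, against 0.00778% to 0.677%. These shares rest on 37, 29 and 60 reads. Their libraries held too few reads of any kind for gene levels.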

How the results depend on the processing

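No paired analysis was possible because all wells carry 1 set of labels and no label pairs them. Of 426 alternative values 405 moved by less than the spread between libraries or stayed within 1.5 times the count, among them all 261 that left out 1 low-mitochondrial library. The difference in median share of other long noncoding genes, -0.093 percentage points, became 0.810 in rows F and G alone, 0.149 over a total without MT- genes and the 5 loci, and 0.213 with pooled reads. With that total the coding difference was -20.4 in place of -7.34 points, pseudogenes 3.62, antisense 1.36 in place of 2.66 and single-exon genes 4.44, and the log2 ratio of the summed G2/M list turned from -0.20 to 0.018. With pooled reads that of the large neuronal list turned from -0.29 to 0.46. In rows F and G alone the differences were 3.50 points for antisense, 0.584 for small RNA and 7.71 for long spans. The other strand column gave 10.1 points for symbols with no class. Higher calls numbered 825 with a pseudocount of 10 CPM, 763 with a filter of 50 CPM, 336 past 8-fold and 0 by RPM of all reads. Lower calls numbered 2153 with medians over libraries, 1640 with a filter of 50 CPM and 6220 by RPM of all reads. The difference in genes with a read turned to 3253 more at 100000 gene reads. The cause of these changes was not tested, apart from fewer genes passing a higher filter. A single read is worth 6.42 to 11.4 CPM in these libraries, so levels near that value rest on single reads.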
